A study of Homo sapiens with 15 samples.

Results

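The genes described are the nuclear genes for subunits of the respiratory chain and the ATP synthase. They were taken by symbol: every measured gene with one symbol that begins with NDUFA, NDUFB, NDUFC, NDUFS, NDUFV, UQCR, COX4 to COX8 or ATP5, together with the SDH subunit genes and CYC1. Pseudogenes and the NDUFAF assembly factors were left out. The rule found 80 genes among 18377 measured genes: 34 of complex I, 3 of complex II, 8 of complex III, 17 of complex IV and 18 of complex V, the ATP synthase. The current reference holds 87 subunit genes by this rule. Of the other 7, ATP5F1E, NDUFC2, NDUFS5 and UQCRHL had only an array feature that carries several symbols, and the others were not analysed here.

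The RNA came from PC3 cells, a prostate cancer line from a bone metastasis, and DU145 cells, a prostate cancer line from a brain metastasis. Both were transfected with 20 nM of a synthetic mimic of miR-224, of miR-452 or of scrambled sequence, or were left untransfected, and RNA was taken at 48 h. Each group had 2 arrays in each line, except the DU145 scrambled group, which had 1. Whole-transcript expression arrays gave log2 levels that the authors normalized for each line separately, so a level in PC3 cells cannot be set against one in DU145 cells.

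Complexes I to IV pass electrons from NADH and succinate to oxygen, complexes I, III and IV pump protons across the inner mitochondrial membrane, and complex V uses the returning protons to make ATP. Complex I is entered by NADH, complex II by succinate, complex III hands electrons to cytochrome c, and complex IV, cytochrome c oxidase, reduces oxygen. Apart from complex II, each complex joins nuclear-encoded subunits, made in the cytosol and imported, to a few encoded by mitochondrial DNA. None of the 13 mitochondrially encoded subunit genes was measured by a feature with one symbol, so only the nuclear share of each complex is described.

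The labels name the mimics by number and do not give the arm of the hairpin. The sequences of the 5p products are shown from RefSeq (GRCh38.p14) to identify the microRNAs named, with the seed, bases 2 to 8, in capitals; whether the mimics carry these or the 3p products is not given. The genes of both microRNAs lie near each other on the X chromosome, and the 5p seeds differ.
hsa-miR-224-5p (chrX:151958628-151958652, minus strand): uCAAGUCAcuagugguuccguuuag
hsa-miR-452-5p (chrX:151959678-151959699, minus strand): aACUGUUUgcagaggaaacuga

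RefSeq promoter windows, from 250 bases before to 50 bases after the annotated start, were matched by symbol for 67 of the 80 genes. The windows of 4 genes are shown, up to base 25 of the transcript, for the genes on which the results below turn: NDUFA8, which was lower with miR-224 than with scrambled mimic in both lines, COX5B, which was lower with it in PC3 cells, NDUFS1, which differed between scrambled and untransfected cells in both lines, and UQCRH, which was lower with miR-452 in DU145 cells. Capitals mark the motifs searched for, read on either strand: the palindromic 10-base motif of the nuclear respiratory factor NRF1, seen in capitals across the start of NDUFA8, CCGGAAG, an ETS-family motif of the kind GABP binds, AAGATGGC, a YY1 motif, and GGGCGG, the GC box of SP1.
NDUFA8 (chr9:122159755-122160029, minus strand): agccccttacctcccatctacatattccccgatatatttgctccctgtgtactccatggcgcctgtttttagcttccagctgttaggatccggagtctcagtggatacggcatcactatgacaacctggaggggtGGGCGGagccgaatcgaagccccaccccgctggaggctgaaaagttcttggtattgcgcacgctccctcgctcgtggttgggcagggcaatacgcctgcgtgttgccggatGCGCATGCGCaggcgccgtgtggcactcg
COX5B (chr2:97645812-97646086, plus strand): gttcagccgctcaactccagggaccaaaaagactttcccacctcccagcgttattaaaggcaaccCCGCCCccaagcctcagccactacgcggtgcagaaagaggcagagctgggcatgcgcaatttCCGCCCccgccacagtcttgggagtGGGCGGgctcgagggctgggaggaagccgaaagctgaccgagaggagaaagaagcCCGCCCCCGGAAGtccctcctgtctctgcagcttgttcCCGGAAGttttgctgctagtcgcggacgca
NDUFS1 (chr2:206159420-206159694, minus strand): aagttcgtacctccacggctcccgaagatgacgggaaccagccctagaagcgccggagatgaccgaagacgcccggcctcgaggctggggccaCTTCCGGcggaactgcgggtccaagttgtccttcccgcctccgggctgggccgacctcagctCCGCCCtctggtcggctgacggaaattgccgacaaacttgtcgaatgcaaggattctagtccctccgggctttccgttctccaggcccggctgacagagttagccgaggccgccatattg
UQCRH (chr1:46303448-46303722, plus strand): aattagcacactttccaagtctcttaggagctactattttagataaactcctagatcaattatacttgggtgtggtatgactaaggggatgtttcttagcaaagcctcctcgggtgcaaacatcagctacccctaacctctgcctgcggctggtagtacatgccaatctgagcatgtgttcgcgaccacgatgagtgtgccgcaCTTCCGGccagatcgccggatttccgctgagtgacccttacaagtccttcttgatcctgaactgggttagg

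The NDUFA8 window held an NRF1 motif that begins 4 bases before the start and a GC box that begins at base -115. The COX5B window held 2 ETS motifs and 4 GC boxes, one of which abuts an ETS motif. The NDUFS1 window held 1 ETS motif and 1 GC box, and the UQCRH window held 1 ETS motif. Over all 67 windows, the NRF1 motif was in 4 (5.97%), against 1.8% of the windows of 14210 measured genes, the ETS motif in 19 (28.4%), against 14.6%, and the YY1 motif in 10 (14.9%), against 4.07%. GC boxes were in 39 (58.2%), against 60% of measured genes. At least 1 of the NRF1, ETS and YY1 motifs was in 31 windows (46.3%), against 19%. The YY1 motif was in 6 of the 32 complex I windows and in none of the 14 complex IV windows, which is a description of letters and not of binding.

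Arrays of one group correlated at 0.991 or higher over all genes. Median array levels ran from 6.94 to 7.05 in PC3 cells and from 6.51 to 6.67 in DU145 cells. Upper quartiles were 8.52 and 8.47 on the untransfected PC3 arrays and 8.35 to 8.44 on the other PC3 arrays. In DU145 cells they were 7.93 on both untransfected arrays and 7.75 to 7.81 on the others. The part of these shifts in the comparisons with untransfected cells was not tested. Both lines had the cytokeratins of epithelial cells, with KRT8 at 11.2 to 11.6 in PC3 cells and 11.7 to 12.2 in DU145 cells. The leukocyte marker PTPRC was at 5.00 to 5.13 and 5.08 to 5.31, close to the lowest value of the table, 4.49. CD3E, PECAM1, VWF, CDH5 and DCN, also markers of other cell types, lay below the median array levels of both lines. The fibroblast marker COL1A1 lay above them, at 8.25 to 8.63 in PC3 cells and 6.998 to 7.595 in DU145 cells. COL3A1, another fibroblast marker, was at 6.96 to 7.32 and 6.39 to 6.93. The epithelial marker CDH1 was at 6.73 to 7.30 and 8.38 to 8.93. The prostate markers KLK3 and KLK2 reached at most 6.82 in PC3 and 6.54 in DU145 cells. EPCAM, an epithelial adhesion protein, varied most, from 6.85 to 9.01 in PC3 cells and 7.27 to 9.07 in DU145 cells, and of 5 epithelial markers 1 was called lower with miR-224 than with scrambled mimic in PC3 cells and 2 in DU145 cells; its part in the results below was not tested. None of the 8 markers of leukocytes, endothelium and fibroblasts passed the test in any comparison of a mimic with scrambled mimic. In these bulk samples, fewer cells and less RNA per cell cannot be told apart. The labels do not say that arrays of a group came from separate cultures, so each p-value reflects variation from array to array, which may be technical, and precision is limited by how few arrays there are.

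NDUFA8 showed the largest difference of the 80 genes. It encodes an accessory subunit of complex I with cysteine motifs of the kind found in proteins of the intermembrane space. In PC3 cells its log2 level was 8.13 and 8.09 with miR-224, 8.94 and 9.04 with miR-452, 9.12 and 9.04 with scrambled mimic, and 9.15 and 9.11 in untransfected cells. Both miR-224 arrays lay below all the others. In DU145 cells it was 7.34 and 7.25 with miR-224, 8.19 and 8.52 with miR-452, 8.72 with scrambled mimic, and 8.61 and 8.51 in untransfected cells. The miR-224 arrays again lay apart from the rest, and the first miR-452 array lay below every control array.

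With miR-224, NDUFA8 was 1.96-fold lower than with scrambled mimic in PC3 cells (log2 difference -0.97 ± 0.078 SE, n = 2 and 2 arrays, adjusted p = 4.23e-05 by limma) and 2.67-fold lower in DU145 cells (-1.42 ± 0.14 SE, n = 2 and 1, adjusted p = 0.0022). It was also lower than with miR-452, by 0.88 on the log2 scale in PC3 cells (adjusted p = 3.14e-05, -0.88 ± 0.078 SE) and by 1.06 in DU145 cells (adjusted p = 0.00135, -1.06 ± 0.115 SE). Against untransfected cells the miR-224 differences were -1.02 in PC3 cells and -1.27 in DU145 cells. The call against scrambled mimic held whichever array was left out, with differences of -1.01 to -0.93 in PC3 cells and -1.46 to -1.37 in DU145 cells. No other member was lower with miR-224 than with scrambled mimic past the threshold in both lines.

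**Figure D1:**
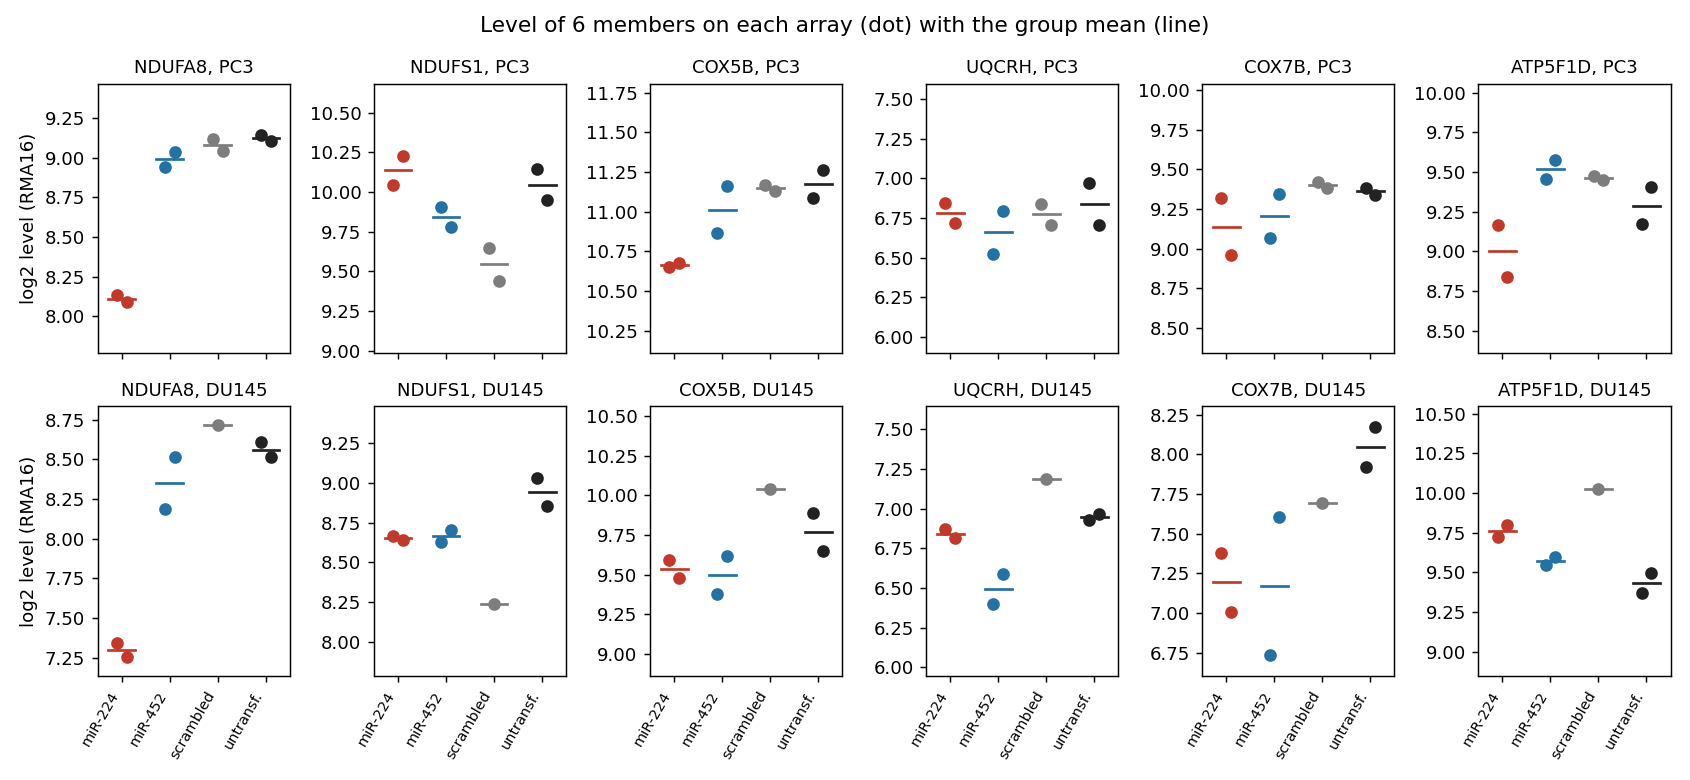
Log2 level (vertical axis) of 6 members on each array in PC3 cells (top) and DU145 cells (bottom), by treatment, with a line at the group mean; each panel spans the same log2 range. NDUFA8 is lowest on the miR-224 arrays in both lines, at 8.13 and 8.09 in PC3 cells and 7.34 and 7.25 in DU145 cells, and NDUFS1 is lowest with scrambled mimic.

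In PC3 cells with miR-224, 9 of the 80 members fell and 2 rose relative to scrambled mimic at an adjusted p under 0.05 over all 18377 genes. Of all genes, 4.65% were called lower and 12.1% higher, against 11.2% and 2.5% of the members. The members' median difference was -0.11, against -0.01 over all genes and 0.07 over the 2494 genes at or above the members' median level, and 61 of 80 lay below 0. After quantile normalization, 22 members were called lower and 2 higher. Here and below, the shares of all genes are those of the main fit. Counts under quantile normalization or other fit settings, or with an array left out, have no such share beside them. They are not read as particular to the members. Without the second miR-224 array 3 fell and 1 rose (NDUFA8, NDUFB2 and COX5B, and NDUFS1), without the first scrambled array 5 fell and 2 rose, and the counts with other alternatives are given at the end.

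Complex I gave 4 of the falls and 1 of the rises in that comparison, and 27 of its 34 members lay below 0, with a median of -0.12. NDUFB2, an accessory subunit of the membrane arm, was at 8.09 and 7.99 with miR-224 and at 8.48 and 8.55 with scrambled mimic, and the groups did not overlap (-0.48 ± 0.078 SE, adjusted p = 0.00198). NDUFA11, another accessory subunit of the membrane arm, fell by 0.35 (adjusted p = 0.0146), and NDUFA7, of the matrix arm, fell by 0.33 (adjusted p = 0.0249). Mean levels with miR-224, with scrambled mimic and in untransfected cells were 8.45, 8.80 and 8.75 for NDUFA11 and 9.63, 9.96 and 9.77 for NDUFA7. Neither NDUFA11 nor NDUFA7 passed when the second miR-224 array or the first scrambled array was left out (adjusted p = 0.195 and 0.0666 for NDUFA11, 0.21 and 0.111 for NDUFA7). NDUFS1, a core subunit that carries iron-sulfur clusters, went the other way, at 10.05 and 10.23 with miR-224 and 9.65 and 9.44 with scrambled mimic (0.59 ± 0.105 SE, adjusted p = 0.00301). Its untransfected arrays, at 10.14 and 9.95, overlapped those of miR-224.

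Complex II had no call, and its 3 measured members ranged from -0.14 for SDHD, a membrane anchor, to 0.18 for SDHA, the flavoprotein that oxidizes succinate. In complex III, CYC1, the haem-bearing cytochrome c1, was at 10.24 and 10.20 with miR-224 against 10.54 on both scrambled arrays (-0.32 ± 0.074 SE, adjusted p = 0.0125). UQCRC2, a core protein of the same complex, rose by 0.41 (± 0.08 SE, adjusted p = 0.00538), with 10.65 and 10.75 against 10.34 and 10.24. The untransfected arrays read 10.63 and 10.54 for UQCRC2, so that against untransfected cells its miR-224 difference was 0.12 (adjusted p = 0.421) and that of NDUFS1 0.09 (adjusted p = 0.649). Without the second miR-224 array the adjusted p was 0.122 for CYC1 and 0.0722 for UQCRC2, and without the second scrambled array 0.0513 for CYC1.

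Of the 17 complex IV members, 16 lay below 0 with miR-224 in PC3 cells, with a median of -0.12 and a highest value of 0.02 for COX7A2L, a relative of COX7A2 found in supercomplexes. The tissue isoforms COX4I2, COX6A2, COX6B2, COX7A1, COX7B2 and COX8C lay between -0.13 and -0.02. Without them the middle value of complex IV was -0.18, that of COX7C. COX5B, a zinc-binding subunit, was at 10.65 and 10.68 with miR-224, against 11.17 and 11.13 with scrambled mimic, 0.48 lower on the log2 scale (-0.48 ± 0.102 SE, adjusted p = 0.00761). COX7A2, the widely expressed form of subunit VIIa, was at 8.84 on both miR-224 arrays against 9.27 and 9.18 (-0.39 ± 0.083 SE, adjusted p = 0.00851). The groups did not overlap for either gene, and both were also lower with miR-224 than in untransfected cells (COX5B by 0.51 with adjusted p = 0.0097 and -0.51 ± 0.102 SE, COX7A2 by 0.35 with adjusted p = 0.0222 and -0.35 ± 0.083 SE). COX7A2 missed the threshold without the second miR-224 array (adjusted p = 0.0696).

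In complex V, 11 of 18 members lay below 0, with a median of -0.04. ATP5F1D, the delta subunit of the rotating stalk, was at 9.17 and 8.84 with miR-224 and 9.48 and 9.45 with scrambled mimic (-0.46 ± 0.115 SE, adjusted p = 0.017). ATP5ME, the small membrane subunit e, was at 9.06 and 8.81 against 9.34 and 9.18 (-0.32 ± 0.098 SE, adjusted p = 0.0425). The miR-224 arrays stood apart from each other for both genes. ATP5F1D did not pass without the second miR-224 array (adjusted p = 0.199) or without either scrambled array (0.0609 and 0.0614), and ATP5ME passed only when the first miR-224 array was left out, with an adjusted p between 0.051 and 0.398 without any other array. Against untransfected cells the differences were -0.29 (adjusted p = 0.152) and -0.19 (adjusted p = 0.282). The genes of the alpha, beta and gamma subunits, ATP5F1A, ATP5F1B and ATP5F1C, lay between -0.02 and 0.06 in this comparison, and the largest rise in complex V was 0.18 for ATP5PB, of the peripheral stalk, which did not pass.

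**Figure D2:**
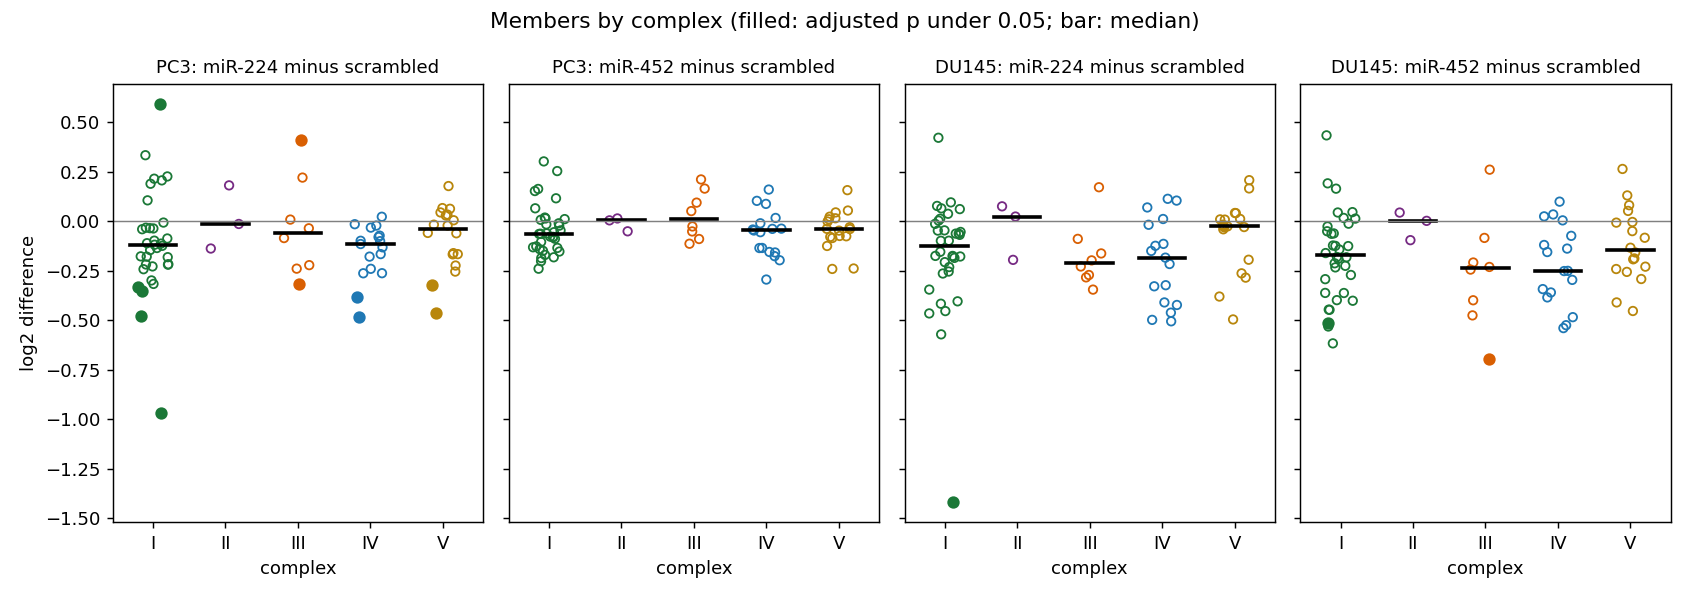
Log2 difference from scrambled mimic (vertical axis) of each member, grouped by complex, for each mimic in each line; filled points passed adjusted p 0.05 and bars are medians. Complex IV medians, tissue isoforms included, lie at -0.12 with miR-224 in PC3 cells, -0.18 with miR-224 in DU145 cells and -0.25 with miR-452 in DU145 cells. The single DU145 scrambled array had a complex IV mean of 8.26, above both untransfected DU145 arrays (8.12 and 8.14). NDUFA8 is the lowest point of both miR-224 panels.

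In DU145 cells with miR-224, 1 of the 80 members, NDUFA8, fell relative to scrambled mimic and none rose (limma), against 1.31% of all genes called lower and 0.631% higher. At an unadjusted p under 0.05, 21 members were lower and 1 was higher. The share of all genes at that threshold is not given, so this count is not read as particular to the members. The single scrambled array gives no spread of its own and was assumed to vary like the other groups. The median difference of the members was -0.12, against -0.01 over all genes, and 58 of 80 lay below 0. The medians were -0.13 for complex I, 0.02 for complex II, -0.21 for complex III, -0.18 for complex IV and -0.03 for complex V. The tissue isoforms of complex IV lay between -0.18 (COX4I2) and 0.11 (COX7B2). Without them the middle value of complex IV was -0.33, that of COX6A1, below the median of every other complex. Over all 17 complex IV members, array means were 8.06 on both miR-224 arrays, 8.26 on the scrambled array and 8.12 and 8.14 on the untransfected arrays. The single scrambled array thus stood above the untransfected arrays, and its part in the complex IV differences was not tested.

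Of the other members of the DU145 comparison, 5 had an adjusted p under 0.1, and all 5 were lower. NDUFA1, a small membrane-arm subunit encoded on the X chromosome, was at 7.24 and 7.15 with miR-224, 7.77 with scrambled mimic and 7.64 and 7.41 in untransfected cells (-0.57 ± 0.135 SE against scrambled mimic, adjusted p = 0.0746). NDUFB2 was at 8.01 and 7.95 with miR-224, against 8.45 with scrambled mimic and 8.11 and 7.97 in untransfected cells (-0.47 ± 0.113 SE, adjusted p = 0.0819). ATP5MG, the membrane subunit g, had a difference of -0.50 ± 0.121 SE (adjusted p = 0.0824), NDUFB10 of the membrane arm one of -0.42 (adjusted p = 0.0767) and COX6B1 of complex IV one of -0.42 (adjusted p = 0.0801). NDUFS1 lay the other way at 0.42 ± 0.113 SE (adjusted p = 0.112), and COX5B had a difference of -0.51 ± 0.141 SE (adjusted p = 0.127). For NDUFB2 the scrambled array stood above both untransfected arrays, one of which overlapped the miR-224 arrays. Leaving out either miR-452 array from the fit, which changes only the estimate of the spread, brought the count to 8 lower.

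With miR-452 in PC3 cells, no member passed the test, against 2.89% of all genes called higher and 2.33% lower by limma. At an unadjusted p under 0.05, 3 members were higher and 3 lower, with no share of all genes given at that threshold. The members ranged from -0.29 for COX7C, a small complex IV subunit, to 0.30 for NDUFS1, with a median of -0.05 against 0.01 over all genes. NDUFV3, an accessory subunit at the NADH-oxidizing tip, had the smallest p (9.73 and 9.66 with miR-452, 9.49 and 9.40 with scrambled mimic, 0.25 ± 0.079 SE, adjusted p = 0.0974). The values farthest from 0 in complexes II, III and V were -0.05 for SDHA, 0.21 for UQCRC2 and -0.24 for ATP5IF1, the inhibitor of the ATP synthase, and none passed.

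With miR-452 in DU145 cells, 2 members fell and none rose relative to scrambled mimic, against 1.52% of all genes called lower and 0.577% higher. The members' median was -0.17, the lowest of the comparisons with scrambled mimic, against -0.02 over all genes and -0.04 over the 2673 genes at or above the members' median level. The value lay below 0 for 62 of 80 members, and 25 were lower and 2 higher at an unadjusted p under 0.05. The share of all genes at that threshold is not given, so these counts are not read as particular to the members. The complex medians were -0.17 for complex I, 0.00 for complex II, -0.24 for complex III, -0.25 for complex IV and -0.15 for complex V. The tissue isoforms of complex IV lay between -0.16 (COX6A2) and 0.10 (COX8C). Without them the middle value of complex IV was -0.34, that of COX6B1. Over all 17 complex IV members, array means were 8.04 on both miR-452 arrays, 8.26 on the scrambled array and 8.12 and 8.14 on the untransfected arrays. After quantile normalization, 3 members were called lower and 1 higher.

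UQCRH, the hinge protein of complex III that helps cytochrome c to dock, was at 6.40 and 6.59 with miR-452 in DU145 cells, 6.87 and 6.81 with miR-224, 7.19 with scrambled mimic, and 6.93 and 6.97 in untransfected cells. The miR-452 arrays lay below every other DU145 array. The difference was -0.69 ± 0.113 SE from scrambled mimic (adjusted p = 0.02) and -0.46 ± 0.093 SE from untransfected cells (adjusted p = 0.00967). NDUFA11 was at 7.64 and 7.81 with miR-452, against 8.24 with scrambled mimic and 7.92 and 7.89 in untransfected cells. It fell relative to scrambled mimic (-0.52 ± 0.111 SE, adjusted p = 0.0487), and its difference from untransfected cells was -0.18 (adjusted p = 0.157). With the replicate letters of the arrays as a block in the fit, neither UQCRH nor NDUFA11 passed against scrambled mimic. When either untransfected array was left out of the fit neither gene passed (adjusted p = 0.0505 for UQCRH and 0.125 for NDUFA11), NDUFA11 also missed it without either miR-224 array (adjusted p = 0.0841), and without the second miR-452 array 12 members were called lower.

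The 4 members nearest the threshold in the same DU145 comparison were NDUFB10 (-0.45, adjusted p = 0.0535), NDUFA13, also known as GRIM-19 (-0.62, adjusted p = 0.0576), ATP5F1D (-0.45, adjusted p = 0.0657) and UQCRC1, a core protein of complex III (-0.48, adjusted p = 0.07). NDUFS1 lay the other way at 0.43 (adjusted p = 0.0826). For UQCRC1 the miR-452 arrays read 7.87 and 8.08, the scrambled array 8.45 and the untransfected arrays 8.27 and 8.17. The miR-452 arrays correlated at 0.991, the lowest value of the array pairs, and their means over all 80 members were 8.53 and 8.64, against 8.76 on the scrambled array and 8.70 and 8.69 on the untransfected arrays. COX7B, a small complex IV subunit, showed the largest gap, with 6.73 on one miR-452 array and 7.60 on the other.

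**Figure D3:**
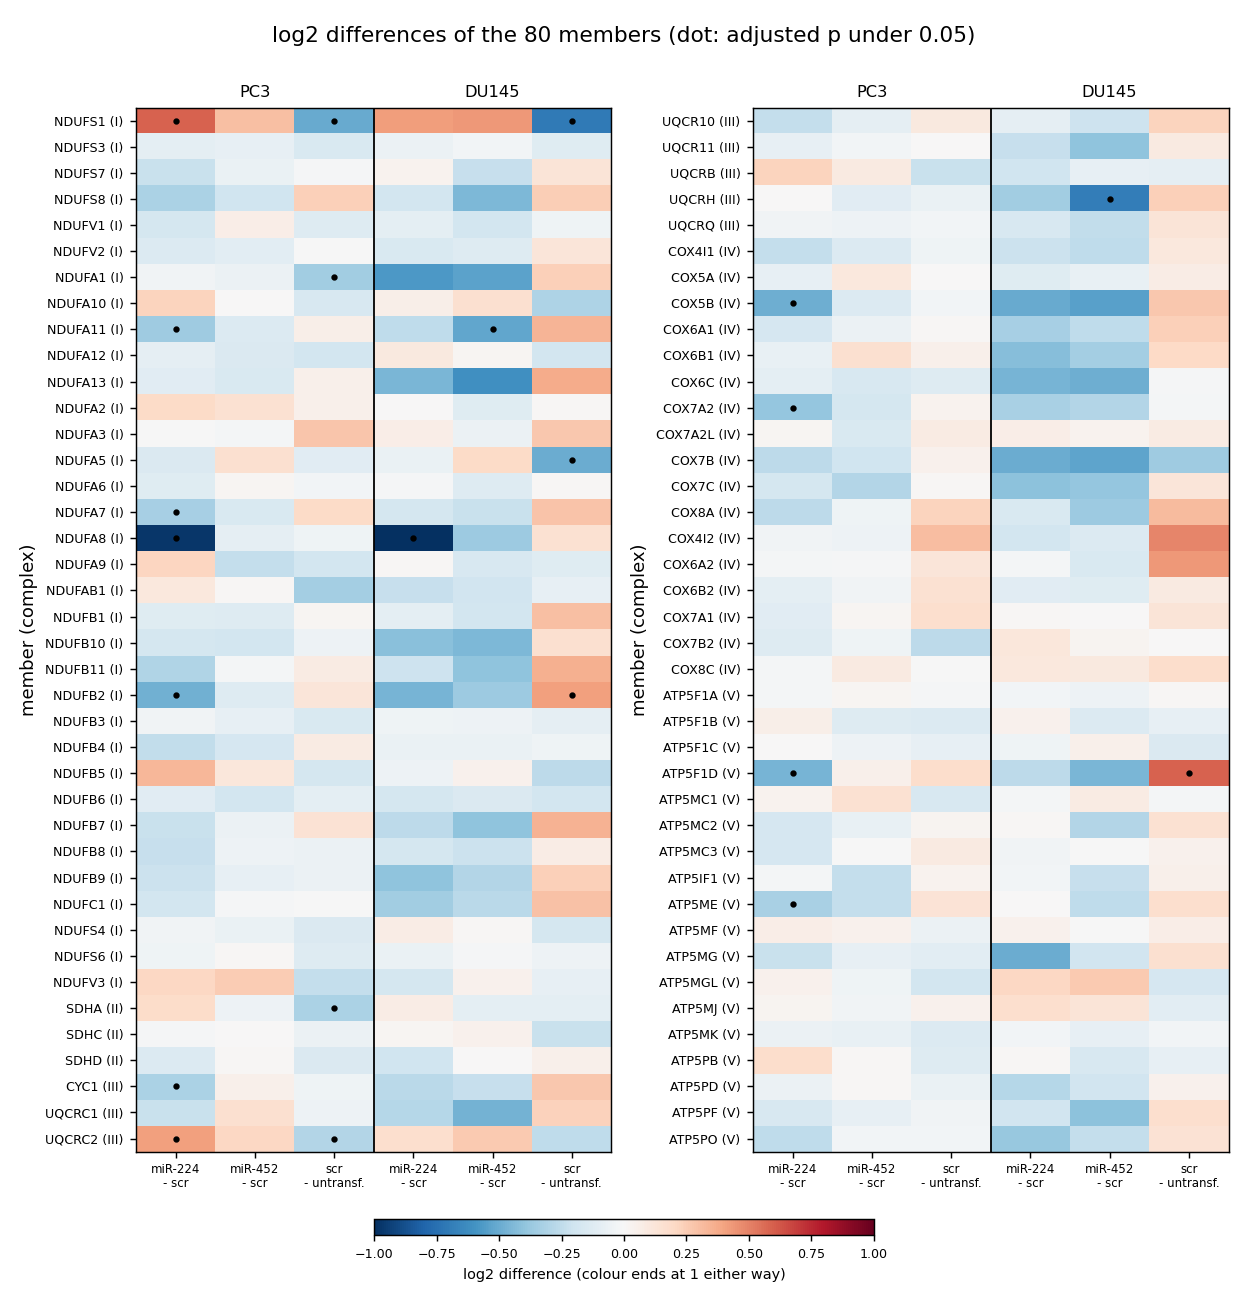
Log2 differences (colour, blue lower and red higher, saturated at -1 and 1) of all 80 members by complex for both mimics against scrambled mimic and for scrambled mimic against untransfected cells, in PC3 and DU145 cells; dots mark adjusted p under 0.05. The NDUFA8 row is darkest in the miR-224 columns, at -0.97 and -1.42, and NDUFS1 is red in the miR-224 columns (0.59 and 0.42) and blue where scrambled mimic is set against untransfected cells (-0.50 and -0.71).

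Set directly against miR-452, miR-224 gave 6 members lower and 1 higher in PC3 cells, against 5.99% of all genes called lower and 12.5% higher. Besides NDUFA8, those lower were ATP5F1D (-0.52), UQCRC1 (-0.39), CYC1 (-0.37), NDUFB2 (-0.35) and COX5B (-0.35), with adjusted p between 0.00493 and 0.0347. COX5B passed in 5 of 8 fits that left out 1 array and ranged from -0.50 to -0.20, the smallest difference being without the second miR-452 array (adjusted p = 0.299). ATP5F1D, UQCRC1 and NDUFB2 passed in 6 of the 8, CYC1 in 7 and NDUFA8 in all. UQCRC1 was at 9.39 and 9.46 with miR-224, against 9.79 and 9.83 with miR-452. The member that rose was NDUFA9, an accessory subunit of the matrix arm, at 9.69 and 10.06 against 9.28 and 9.56 (0.45 ± 0.129 SE, adjusted p = 0.0295), which missed the threshold when any of 4 single arrays was left out (either untransfected array, the second miR-224 array or the first miR-452 array). After quantile normalization 13 were lower and none higher, and without the second miR-224 array 2 were lower. Without the second miR-452 array 2 were lower and 1 was higher. In DU145 cells the same comparison called 1 member, NDUFA8, lower and none higher, against 2.38% of all genes called lower and 3.53% higher, and without the second miR-452 array 5 were called higher beside it.

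The changes in PC3 and DU145 cells were compared in one fit over all 15 arrays. No member's difference between miR-224 and scrambled mimic differed between the lines, against 1.15% of all genes called in either direction by limma, and 6 members had an unadjusted p under 0.05 with PC3 above DU145 and 1 with PC3 below. NDUFA8 differed by 0.45 ± 0.155 SE (PC3 minus DU145, adjusted p = 0.203), and NDUFA1 by 0.53 ± 0.151 SE (adjusted p = 0.109). For miR-452 no member passed either, against 0.62% of all genes, with 12 members above and none below at an unadjusted p under 0.05. For neither mimic is the share of all genes at the unadjusted threshold given. UQCRC1 came nearest, with 0.16 in PC3 cells and -0.48 in DU145 cells (difference 0.64 ± 0.137 SE, adjusted p = 0.051). It passed with the percentile 20 filter (adjusted p = 0.0456), with the percentile 50 filter (0.0281), after quantile normalization (0.0355), with trend and robust moderation (0.0317) and without the second DU145 miR-452 array (0.0188).

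Across genes, which are not independent replicates, 63 of the 80 members had the same sign in both lines with miR-224 against scrambled mimic and 58 with miR-452. Pearson's r over the 80 members was 0.68 with miR-224 (0.57 without NDUFA8) and 0.49 with miR-452. Members of one line share its scrambled arrays, including the single one of DU145 cells. The same counts and correlations over all genes are not given, so these values are not read as particular to the members.

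**Figure D4:**
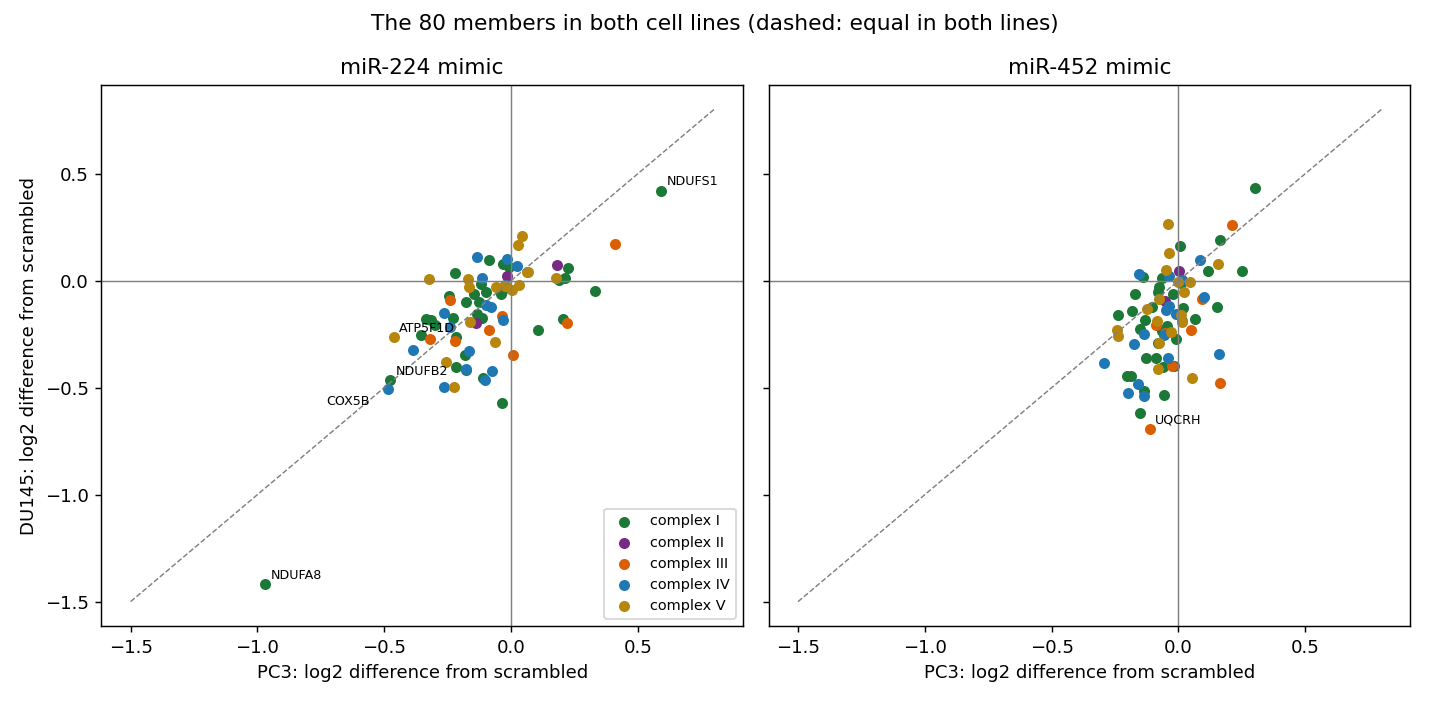
Log2 difference from scrambled mimic of the 80 members in PC3 cells (horizontal axis) and DU145 cells (vertical axis), coloured by complex, for miR-224 (left) and miR-452 (right); some members past adjusted p 0.05 in either line are named and the dashed line marks equal values. NDUFA8 lies far from the others at -0.97 and -1.42, and the miR-452 points spread more along the DU145 axis, from -0.69 to 0.43, than along the PC3 axis, from -0.29 to 0.30.

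Scrambled mimic was also set against no transfection, a comparison in which transfection and the scrambled sequence cannot be told apart. In PC3 cells 4 members fell and none rose, against 10.9% of all genes called lower and 3.32% higher. NDUFS1 was at 9.65 and 9.44 with scrambled mimic and at 10.14 and 9.95 in untransfected cells (-0.50 ± 0.105 SE, adjusted p = 0.0136). NDUFA1 fell by 0.35, SDHA by 0.32 and UQCRC2 by 0.29 (adjusted p = 0.0182, 0.0275 and 0.0357). The groups did not overlap for any of them. The members' median was -0.03, against 0.00 over all genes and -0.11 over genes at or above the members' median level. No member passed when the first untransfected array or the second scrambled array was left out, and after quantile normalization 1 was lower and 1 higher, the members' median then being 0.07.

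In DU145 cells scrambled mimic gave 2 members lower and 2 higher than no transfection, against 9.22% of all genes called lower and 2.6% higher. NDUFS1 again fell, at 8.24 with scrambled mimic against 9.03 and 8.86 in untransfected cells (-0.71 ± 0.113 SE, adjusted p = 0.0144), and NDUFA5, an accessory subunit of the matrix arm, fell by 0.49 (adjusted p = 0.0414). ATP5F1D rose by 0.59 (adjusted p = 0.0187), at 10.03 against 9.37 and 9.50, and NDUFB2 rose by 0.41 (adjusted p = 0.0475). The members' median was 0.08, against 0.03 over all genes and -0.15 over the 2673 genes at or above the members' median level, and 51 of 80 lay above 0. No member passed without either untransfected array, 12 were higher and 4 lower without either miR-452 array, and after quantile normalization 7 were higher and 1 lower with a median of 0.18. Of the 8 markers of other cell types, 1 fibroblast marker was called higher in PC3 cells and 1 leukocyte marker in DU145 cells, and their part in these results was not tested.

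Each mimic was also set against untransfected cells, a comparison that shares the mimic arrays with the ones above. In PC3 cells miR-224 gave 8 members lower and none higher, against 6.85% of all genes called lower and 2.84% higher. Of these 8, only 5 were among the 11 called against scrambled mimic. There miR-452 gave 9 lower and none higher, against 14.1% and 8.12%. In DU145 cells miR-224 gave 7 lower and 2 higher, against 15.5% of all genes called lower and 5.44% higher, and miR-452 gave 7 lower and none higher, against 19.9% and 8.31%. After quantile normalization these counts became 7 lower and 2 higher, 5 lower and 2 higher, 2 lower and 7 higher, and 1 lower and 4 higher, in the same order. The matching shares of all genes are not given. The members' medians were -0.14 and -0.08 in PC3 cells and -0.07 and -0.11 in DU145 cells, and all but the first turned positive after quantile normalization (0.03, 0.04 and 0.05).

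**Figure D5:**
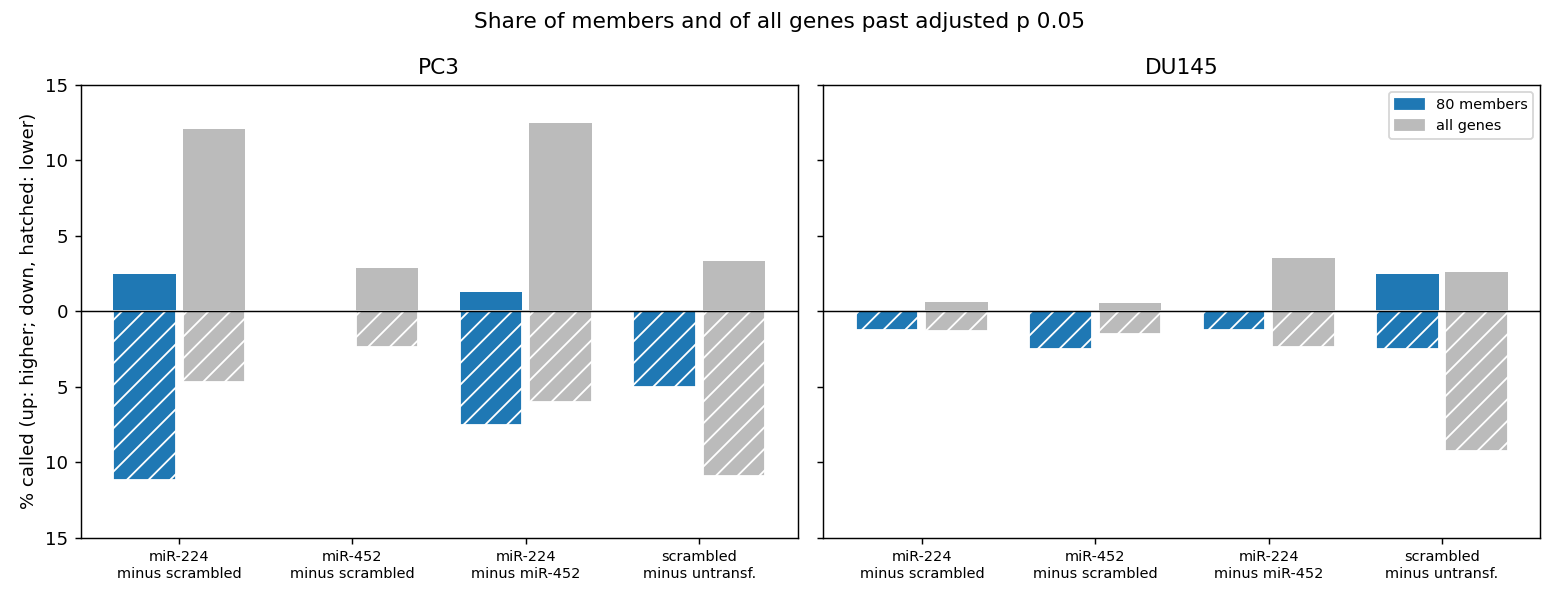
Percent of the 80 members (blue) and of all 18377 genes (grey) called higher (upward bars) and lower (downward hatched bars) at adjusted p under 0.05, by comparison and line. With miR-224 against scrambled mimic in PC3 cells, 11.2% of members and 4.65% of all genes were lower, while 2.5% of members and 12.1% of all genes were higher.

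COX7B differed widely between these arrays. In DU145 cells it was at 7.38 and 7.01 with miR-224, 6.73 and 7.60 with miR-452, 7.69 with scrambled mimic, and 7.92 and 8.17 in untransfected cells. All mimic arrays lay below the untransfected ones, and the spread within each mimic group was wide. Against untransfected cells it was lower by 0.85 with miR-224 (adjusted p = 0.034) and by 0.88 with miR-452 (adjusted p = 0.0257), and it did not pass after quantile normalization (adjusted p = 0.149 and 0.132). NDUFA8, ATP5MG and COX7A2 were lower with miR-224 than in untransfected cells in both lines, as were COX6C and NDUFA9 with miR-452. After quantile normalization, NDUFA8 passed in both lines, ATP5MG and COX7A2 passed in PC3 but not in DU145 cells (adjusted p = 0.13 and 0.191), and COX6C and NDUFA9 passed in neither line (adjusted p = 0.204 and 0.114 in PC3 cells, 0.118 and 0.631 in DU145 cells).

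Complex IV includes isoforms that other studies place mainly in particular tissues. COX7B2, a testis form of subunit VIIb, was at 7.14 to 7.62 in PC3 cells and 4.84 to 5.01 in DU145 cells, where it lay near the floor of the scale. In PC3 cells it was lower with miR-224 than in untransfected cells (7.14 and 7.21 against 7.62 and 7.52, -0.40 ± 0.097 SE, adjusted p = 0.0249). COX4I2, an isoform known from lung, was at 6.52 and 6.41 with scrambled mimic in PC3 cells against 6.13 and 6.19 in untransfected cells, and this difference of 0.31 did not pass (adjusted p = 0.0532). None of COX4I2, COX6A2, COX6B2, COX7A1, COX7B2 and COX8C passed in any comparison with or of scrambled mimic. ATP5IF1 was at 7.62 to 7.91 in PC3 cells and 7.29 to 7.60 in DU145 cells and passed in none of the comparisons within a line. COXFA4, formerly NDUFA4 and now counted with complex IV, is not a member by its present symbol and read 7.97 and 7.95 with miR-224 in PC3 cells against 8.12 and 8.17 with scrambled mimic.

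Other genes of the pathway were taken from lists of assembly factors, cofactor synthesis, regulators, the citric acid cycle and mitochondrial import. With miR-224 in PC3 cells, 3 of 17 complex I assembly factors rose and 1 fell, against 12.1% of all genes called higher and 4.65% lower, with a median of 0.13 against -0.12 for the complex I subunits. The shares of these lists called higher lay near that of all genes. NDUFAF1, which acts early in complex I assembly, rose by 0.72 ± 0.151 SE (adjusted p = 0.00756), and NUBPL, which delivers iron-sulfur clusters to complex I, by 0.47 (adjusted p = 0.0124). Of 19 complex IV assembly factors 3 rose, COX15 of haem A synthesis by 0.56 (adjusted p = 0.00733), and 2 fell, while 2 of 18 regulators rose and none fell, beside the same 12.1% and 4.65% of all genes. None of the 12 citric acid cycle genes passed in this comparison, 11 of them lying above 0.

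Set against untransfected PC3 cells, a comparison that shares the scrambled arrays, NDUFAF1 was lower with scrambled mimic by 0.74 (adjusted p = 0.0125), NUBPL by 0.48 (adjusted p = 0.0191) and COX15 by 0.40 (adjusted p = 0.0438). There, 3 of 17 complex I assembly factors, 4 of 19 complex IV assembly factors and 5 of 18 regulators fell and none rose, against 10.9% of all genes called lower and 3.32% higher. The regulators included TFAM, which packages mitochondrial DNA (-0.42, adjusted p = 0.0148), and TFB1M, a methyltransferase of the mitochondrial ribosome (-0.74, adjusted p = 0.00231). In DU145 cells 4 of 18 regulators fell with scrambled mimic, against 9.22% of all genes called lower, again with TFAM (-0.55, adjusted p = 0.0449) and TFB1M (-0.51, adjusted p = 0.0428).

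With miR-452, COQ10B, a coenzyme Q-binding protein, was lower than with scrambled mimic in both lines (-1.26 ± 0.114 SE in PC3 cells, adjusted p = 9.62e-05, and -0.85 ± 0.101 SE in DU145 cells, adjusted p = 0.00896). COX11, a copper chaperone of complex IV, was also lower in both (-0.46, adjusted p = 0.00548, and -0.48, adjusted p = 0.0499). NDUFAF3, a complex I assembly factor, fell in DU145 cells (-0.82 ± 0.105 SE, adjusted p = 0.0109), and its difference between the lines passed the test (PC3 minus DU145 0.69 ± 0.128 SE, adjusted p = 0.0267). These genes are not subunits, and no subunit gene was called lower with miR-452 than with scrambled mimic in both lines. Of the 73 mitochondrial ribosomal protein genes, taken as another nuclear-encoded mitochondrial group, 9 fell and 5 rose with miR-224 in PC3 cells, against 4.65% of all genes called lower and 12.1% higher, with a median of -0.03 against -0.11 for the respiratory chain members, and the difference between the groups was not tested.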

How the data were processed

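Expression in 15 samples of PC3 and DU145 cells was read on whole-transcript arrays (Affymetrix Human Gene 1.0 ST). Per the labels' design text, the authors summarised and normalized each line's arrays separately with RMA16 in GeneSpring GX and deposited log2 values, and 1 DU145 scrambled array was left out by them. RMA16 is understood to add 16 before the log, which would put the floor at 4 and understate changes of low genes. Of 28869 features, 19310 had 1 symbol, 1752 several and 7807 none, and averaging features of the same symbol gave 18377 genes. Samples were grouped by line and treatment as labelled. limma 3.58.1 in R 4.3.3 fitted 4 groups per line, and 8 groups for differences between lines, with Benjamini-Hochberg adjustment over all genes at 0.05. The fits were run on simulated data with planted miR-224 changes. The check was only that the mean estimated change lay close to the planted one, and it does not bear on the calls.

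Members named were, in each comparison, up to 10 rises and 10 falls past the threshold, the largest rise and fall of each complex for each mimic against scrambled mimic, members past it in both lines or for the difference between lines, tissue isoforms and ATP5IF1; from other lists, up to 4 per list with the smallest p. Members named as near the threshold, NDUFV3, ATP5F1A, ATP5F1B, ATP5F1C and COXFA4 were added with their values in view. The members and lists were chosen with earlier results of these data known. Where groups of a line shared both letters (of a, b, c), deviations of their arrays from the group means correlated at -0.31 to 0.273, and the letters were not taken as pairs. No such correlation could be had for PC3 miR-224 (a, b) or DU145 scrambled mimic (b). The DU145 scrambled array shares no letter with the DU145 mimic arrays (a, c), and a letter effect in these groups was not excluded. Alternatives were the untransfected control, all arrays in 1 fit, filters on low genes, features not averaged, quantile normalization, trend and robust moderation, a letter block and leaving out each array.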

Additional observations from a re-analysis of the deposited data

How the results depend on the processing

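With miR-224 against scrambled mimic in PC3 cells, 11 members were called. The count was 17 with all 15 arrays in one fit, 18 with the percentile 50 filter and 24 after quantile normalization. It was 18 with trend and robust moderation, 7 with the replicate block and 8 with the untransfected control, 5 of these being among the 11. With miR-452 in PC3 cells it was 0, and 9 with the untransfected control. For scrambled mimic against no transfection in PC3 cells it was 4, and 7 with either percentile filter, 2 after quantile normalization and 8 with trend and robust moderation. For miR-224 against miR-452 in PC3 cells it was 7, and 13 after quantile normalization, 12 with trend and robust moderation and 4 with the replicate block. With miR-224 in DU145 cells it was 1, and 9 with the untransfected control, 4 in one fit, 2 and 8 with the percentile 20 and 50 filters, 2 after quantile normalization and 9 with trend and robust moderation. With miR-452 in DU145 cells it was 2, and 7 with the untransfected control, 10 in one fit, 4 and 12 with the percentile filters, 1 with features not averaged, 4 after quantile normalization, 14 with trend and robust moderation and 0 with the replicate block. For scrambled mimic against no transfection in DU145 cells it was 4, and 8 in one fit, 8 after quantile normalization, 7 with trend and robust moderation and 1 with the replicate block. For miR-224 against miR-452 in DU145 cells it was 1, and 4 with trend and robust moderation. Differences between lines were 0 for both mimics, and 2 for miR-224 with the untransfected control and 1 for miR-452 with either filter, quantile normalization or trend and robust moderation. A replicate block with the DU145 miR-452 letters crossed was chosen after seeing the data and gave 2 for miR-224 and 0 for miR-452 against scrambled mimic and 2 between the mimics. NDUFS1 with miR-452 in DU145 cells was higher than with scrambled mimic and lower by the untransfected control (-0.28). Leaving out 1 array at a time gave, in the order above, 4 to 14, 0 to 0, 0 to 5, 2 to 8, 1 to 8, 0 to 12, 0 to 16, 1 to 6, 0 to 0 and 0 to 1. The cause of these shifts was not tested. Except for the main fits and the mimics set against untransfected cells within a line, shares of all genes are not given for these settings. The counts are therefore not read as particular to the members. Few arrays, and 1 scrambled array in DU145 cells, limit every count, and low levels lie near the floor of the scale.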
